A study of Mus musculus with 20 samples.

Results

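A set of 10 genes that mark the regional identity of the preoptic area (POA) and the nearby hypothalamus and basal forebrain were followed in bulk RNA-seq of the POA of 20 male mice. They were chosen by name and were Six3, Six6, Nkx2-1, Lhx8, Isl1, Hmx2, Hmx3, Otp, Sim1 and Moxd1, and all 10 were found among the 25239 genes of the count table. All but Moxd1 encode transcription factors, and Moxd1 encodes a monooxygenase-like protein related to dopamine beta-hydroxylase. Each of 4 groups held 5 mice, all sacrificed on postnatal day (PND) 320. Control SS and control OS males came from matings of heterozygous carriers of the dnFGFR transgene, and dnFGFR SS and dnFGFR OS males from homozygous breeding pairs. The dnFGFR transgene encodes a fibroblast growth factor receptor 1 without its kinase domain under the rat promoter of gonadotropin-releasing hormone (GnRH), so it is aimed at GnRH neurons and not at most cells of the sample. From weaning on PND 20, SS males lived with a male and OS males with a female, with which they bred and raised litters, so that OS housing comprised mating and pups as well as female company. The tissue was a block cut from a brain slice and not a punch of single nuclei.

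These genes work mainly while the forebrain is being patterned, and many stay on in the mature neurons of the region they helped to specify. Six3 and Six6 are SIX-class homeodomain factors of the anterior forebrain and eye, Nkx2-1 specifies the ventral forebrain and much of the hypothalamus, and Lhx8 and Isl1 are LIM-homeodomain factors of basal forebrain cholinergic neurons, with Isl1 also present in striatal projection neurons. Hmx2 and Hmx3 are neighboring homeodomain genes of the hypothalamus and inner ear. Otp, a homeodomain factor, and Sim1, a bHLH-PAS factor, are needed for the neuroendocrine neurons of the paraventricular and supraoptic nuclei. These neurons make oxytocin, vasopressin and thyrotropin-releasing hormone. Moxd1 is known as a marker of sexually dimorphic neurons of the preoptic area and bed nucleus.

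Counted reads per mouse ranged from 32353578 to 39871353. Levels are given as CPM, in which a gene's count is divided by the size of its library, here scaled by the trimmed mean of M-values (TMM). All 5 preoptic markers (Gal, Esr1, Pgr, Nts and Calcr) were detected, but the tissue also carried strong signal of its neighbors. The 8 striatal markers summed to between 2085 and 4142 CPM per mouse, the 5 preoptic markers to between 60.6 and 93.98 CPM, and the choroid plexus gene Ttr ranged from 0.209 to 1984 CPM. Pituitary hormone genes summed to at most 7.89 CPM. dnFGFR OS replicate 5 stood apart on the first principal component of all expressed genes (69.1, against -30.1 to 16.2 for the other 19 mice). Medians and some estimates of the identity genes are given with and without it, whereas marker sums and other genes are given with it only. Control and dnFGFR mice were never sacrificed on the same date, so that date and genotype cannot be told apart. In bulk tissue, fewer cells of a type and less RNA per cell cannot be told apart either.

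When levels were divided by exon length, the 10 genes spanned from 12.1 ± 1.21 CPM per kilobase (SD, n = 20) for Six3 to 0.0696 ± 0.0485 for Six6. Lhx8 followed Six3 at 7.27 ± 1.00 CPM per kilobase. Nkx2-1 (4.33 ± 0.803) and Isl1 (4.19 ± 0.581) lay next and did not differ beyond their spread, since Nkx2-1 was the higher of them in 13 of 20 mice. Moxd1 came next at 2.12 ± 0.159 CPM per kilobase. Otp (0.843 ± 0.604) and Hmx3 (0.791 ± 0.194) could not be ordered, with Otp the higher in 8 of 20 mice. Hmx2 (0.151 ± 0.0935), Sim1 (0.118 ± 0.102) and Six6 likewise overlapped, and Hmx2 was above Sim1 in 13 mice and Sim1 above Six6 in 14. Each of the other steps in this order held in 20 of 20 mice. Six3 lies on mouse chromosome 17 (GRCm38.p6, chr17:85613608-85626191) and overlaps the antisense gene Six3os1 (chr17:85601932-85618396). The strand setting of the counting is not given in the sources used here, so reads of these overlapping genes may not have been separated.

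**Figure D1:**
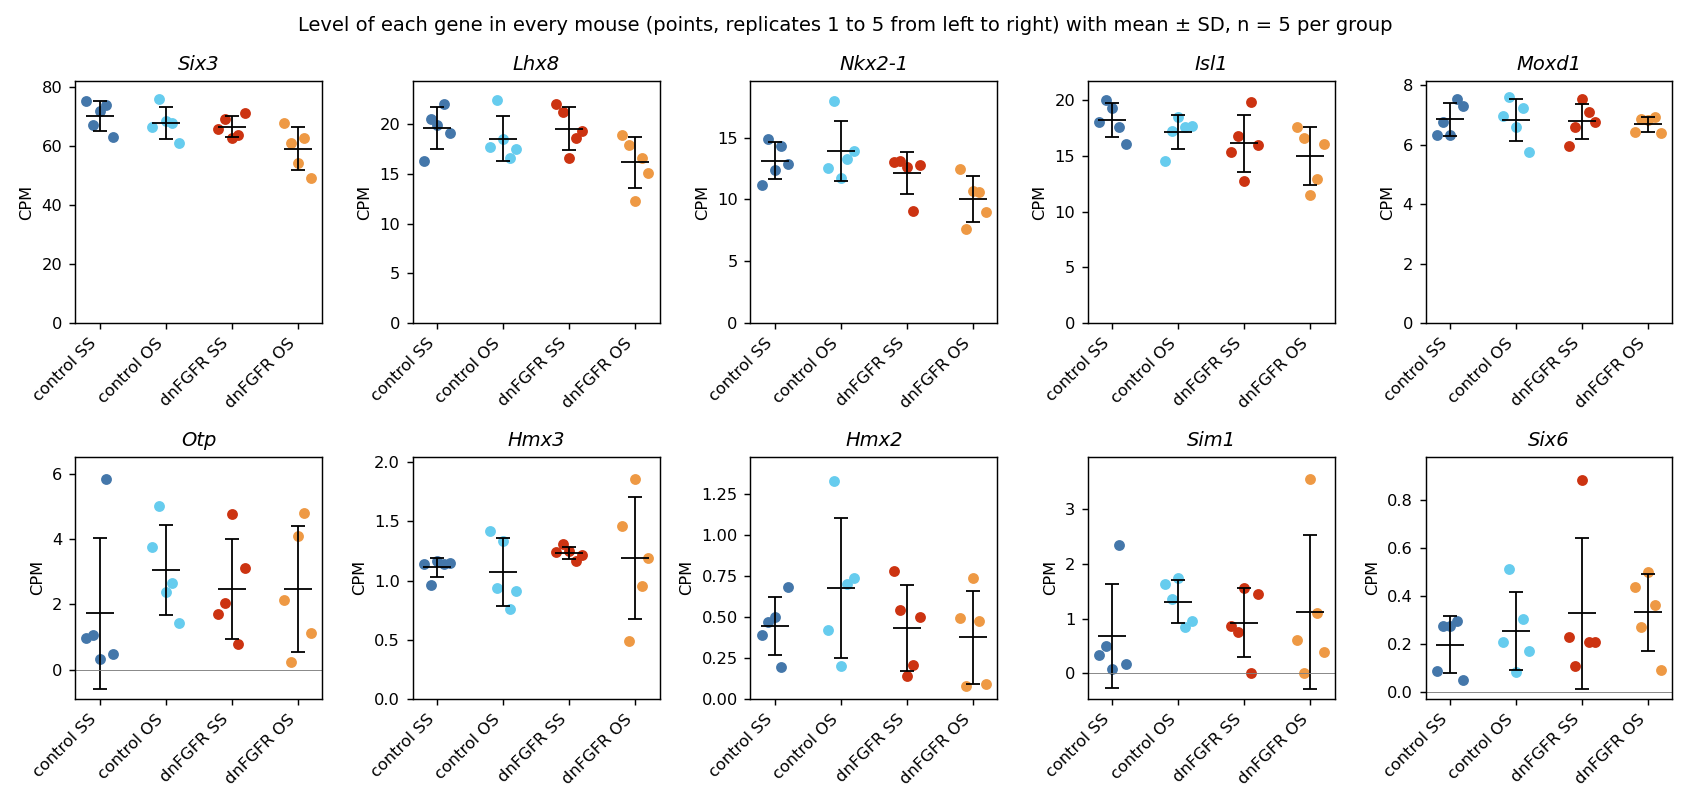
Level of each of the 10 genes in TMM-scaled CPM (linear vertical axes, 1 panel per gene) in the 5 mice of each group, with the group mean and SD in black. Moxd1 stayed between 5.75 and 7.58 CPM in all 20 mice, whereas Otp ran from 0.218 to 5.83 CPM, and the 4 groups overlapped for every gene.

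Among the abundant factors, Six3 was the most evenly expressed. Its mean was 70.3 ± 5.06 CPM in control SS, 68.0 ± 5.37 in control OS, 66.6 ± 3.58 in dnFGFR SS and 59.1 ± 7.30 in dnFGFR OS mice (SD, n = 5 each). Individual dnFGFR OS mice had 67.8, 61.2, 54.3, 62.9 and 49.4 CPM, and control OS mice 66.4, 76.1, 68.5, 67.8 and 61.2 CPM. The 2 lowest dnFGFR OS mice therefore fell below every control OS mouse, while the others overlapped them. Lhx8 averaged 19.5 ± 2.12, 18.5 ± 2.27, 19.5 ± 2.16 and 16.1 ± 2.57 CPM in the same order of groups, with dnFGFR SS mice at 21.97, 21.2, 16.5, 18.5 and 19.3 CPM and dnFGFR OS mice at 18.9, 17.8, 12.3, 16.5 and 15.1 CPM. The lowest Lhx8 level of the study belonged to dnFGFR OS replicate 3, and the ranges of the dnFGFR groups overlapped. Isl1 averaged between 14.9 ± 2.59 CPM in dnFGFR OS and 18.2 ± 1.53 CPM in control SS mice and ranged from 11.5 to 20.03 CPM over all mice.

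Nkx2-1 averaged 13.1 ± 1.496 CPM in control SS, 13.9 ± 2.40 in control OS, 12.1 ± 1.72 in dnFGFR SS and 10.1 ± 1.85 in dnFGFR OS mice. Control OS mice had 12.6, 17.9, 11.8, 13.3 and 13.9 CPM, and dnFGFR OS mice had 12.4, 7.59, 10.7, 10.6 and 8.96 CPM. Thus 4 of the 5 dnFGFR OS mice were below every control OS mouse, and replicate 1 was not.

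The low-level factors Hmx2, Hmx3 and Six6 were counted in few reads, with medians of 17, 42.5 and 9 counts per mouse. Hmx3 was nearly uniform in both SS groups, from 0.964 to 1.17 CPM in control SS and from 1.16 to 1.30 CPM in dnFGFR SS mice, and wider in OS mice, from 0.761 to 1.42 CPM in controls and from 0.491 to 1.86 CPM in dnFGFR mice. This difference in spread was not tested. In SS mice the SD of Hmx3 was 7.45% (control) and 4.17% (dnFGFR) of the mean. Both are below the 15.7% that counting alone gives at its mean count, so the SS values were closer together than counting error. In OS mice the SD was 26.8% and 43.3% of the mean. Hmx2, which lies beside Hmx3 (chr7:131548757-131558014 and chr7:131541532-131546027), ranged from 0.0819 to 1.33 CPM, and Six6 from 0.0509 to 0.881 CPM. Moxd1 averaged 6.85 ± 0.558 CPM in SS and 6.82 ± 0.698 CPM in OS controls, and 6.79 ± 0.587 and 6.68 ± 0.254 CPM in dnFGFR mice housed in the same ways.

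Otp and Sim1 differed most between mice of the same group. Otp was at 0.956, 1.05, 0.334, 5.83 and 0.484 CPM in control SS, at 3.76, 5.00, 2.36, 2.65 and 1.42 CPM in control OS, at 1.71, 2.04, 4.77, 0.776 and 3.11 CPM in dnFGFR SS, and at 2.13, 0.218, 4.07, 4.80 and 1.13 CPM in dnFGFR OS mice. Control SS replicate 4 had the highest level of all mice, while the other 4 control SS mice lay below every control OS mouse. Both dnFGFR groups held low and high mice. Sim1 was at 0.329, 0.496, 0.0834, 2.35 and 0.178 CPM in control SS, at 1.63, 1.36, 1.74, 0.853 and 0.967 CPM in control OS, at 0.867, 0.761, 1.56, 0 and 1.45 CPM in dnFGFR SS, and at 0.612, 0, 3.54, 1.10 and 0.397 CPM in dnFGFR OS mice. The mice without a Sim1 read were dnFGFR SS replicate 4 and dnFGFR OS replicate 2, where 3 counts, the limit that a count of 0 allows, correspond to 0.0895 and 0.0819 CPM. Both also had the lowest Otp level of their group.

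Because Otp and Sim1 correlated between mice (r = 0.893), the sequences before their start sites are given. Windows of 250 bases came from RefSeq (GRCm38.p6), of which the bases before the first annotated GENCODE M21 exon are printed, 5′ to 3′, with the homeodomain core TAAT (or ATTA on the other strand) in capitals. The Otp sequence (chr13:94875386-94875601, plus strand) lies upstream of the gene, and the Sim1 sequence (chr10:50895401-50895472, plus strand) lies in the first intron of a longer Sim1 transcript.
Otp: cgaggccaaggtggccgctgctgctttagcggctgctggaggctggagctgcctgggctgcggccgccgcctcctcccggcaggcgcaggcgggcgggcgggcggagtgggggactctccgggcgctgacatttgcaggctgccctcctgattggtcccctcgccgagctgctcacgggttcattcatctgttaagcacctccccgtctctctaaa
Sim1: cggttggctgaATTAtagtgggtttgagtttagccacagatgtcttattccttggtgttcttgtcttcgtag
The full window of Otp had a GC content of 65.2% and 18 CpG dinucleotides, and that of Sim1 had 45.6% and 11, against medians of 52.4% and 6 over 32851 promoter windows in the table. On either strand, TAAT was found in 4 of the 11 full windows of the 10 genes (Hmx2 has 2 windows), and in 54.9% of all windows. The 4 were those of Sim1, Otp, Isl1 and Six3. The match of Otp lies in the part of its window that is not printed, from the first annotated exon base on. The longer TAATTA, which contains TAAT, was in 0 of 11 windows and in 4.84% of all, and neither strand of any of the 11 held CAAGTG, which 11.6% of all windows did. The string ACGTG was in 1 of 11, that of Isl1, and in 16.6% of all windows. A match is a string of letters and not a site shown to be bound.

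The spread between mice was next set against counting error. The coefficient of variation (CV) of CPM within groups was 8.10% for Moxd1, where counting alone gives 6.45% at its mean count, and 8.32% for Six3, where counting gives 2.07%. Lhx8 (12.4%), Isl1 (12.8%) and Nkx2-1 (15.4%) were intermediate, with counting error from 3.91% to 4.79%. Otp reached 75.1% where counting gives 10.8%, and Sim1 91.1% where counting gives 16.7%. On the log2 scale the within-group SD was 1.27 for Otp and 1.69 for Sim1, against a median of 0.183 over 17445 genes of all levels, and placed them at the 99.6 and 99.8 percentiles. The low-count genes Hmx2 and Six6 were at the 97.8 and 96.3 percentiles. The Sim1 value includes dnFGFR SS replicate 4 and dnFGFR OS replicate 2. These had 0 reads, so a count added before the logarithm set their log2 level. Hmx3 varied by 25.96% (15.7% from counting), Hmx2 by 62.1% (24.1%) and Six6 by 72.5% (31.9%).

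**Figure D2:**
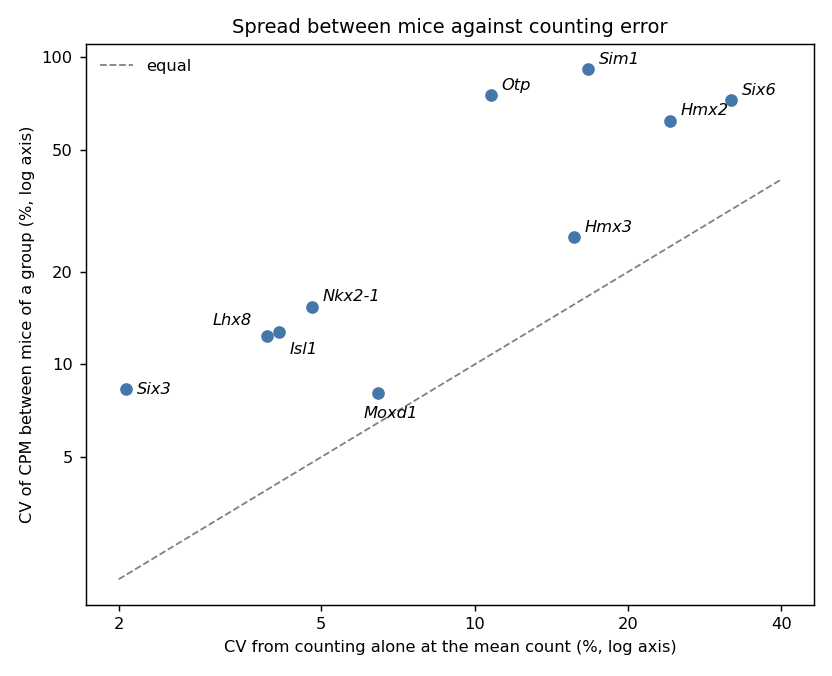
Within-group CV of CPM between mice against the CV expected from counting alone at each gene's mean count, both in percent on log axes, with 1 point per gene and equality as a dashed line. Moxd1 lies near the line at 8.10% against 6.45%, and Otp lies farthest above it at 75.1% against 10.8%.

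The first comparison was of OS with SS housing in control mice. No identity gene passed an adjusted p of 0.1 by edgeR's quasi-likelihood test (0 of 9 tested), where 0.124% of 17004 genes did. At an unadjusted p of 0.05 the count was also 0 of 9, against 7.2% of all genes, and DESeq2 and limma voom also called 0 at the adjusted threshold. The CPM ranges of the groups overlapped for each of the 9 genes, where 1.61% of all genes tested did not overlap. The estimated log2 fold changes (OS minus SS) were largest for the variable genes Sim1, at 0.90 (95% CI -0.40 to 2.20), Otp, at 0.79 (-0.48 to 2.06), and Hmx2, at 0.60 (-0.36 to 1.55). Control SS replicate 4 weighed most on Sim1 and Otp, since without it Sim1 was at 2.26 and Otp at 2.11. In that fit, 2 of 9 genes had an unadjusted p below 0.05, against 1322 of all genes tested (1224 with all mice). No identity gene passed an adjusted p of 0.1 there. The abundant genes had narrow intervals around 0. Six3 differed by -0.05 (-0.19 to 0.09), Lhx8 by -0.08 (-0.28 to 0.12), Isl1 by -0.09 (-0.26 to 0.09), Nkx2-1 by 0.08 (-0.16 to 0.32) and Moxd1 by -0.01 (-0.23 to 0.22). The low-level gene Hmx3 differed by -0.05 with a wider interval (-0.55 to 0.45). The median over the 9 genes was -0.01. Six6 was removed by the filter on low counts here and was described by its levels. The summed choroid plexus markers ranged from 38.0 to 1093 CPM in control SS (median 131) and from 55.0 to 1964 CPM in control OS mice (median 1433). Of these 8 markers, 3 were higher at an unadjusted p of 0.05, with a median log2 fold change of 1.41, and their part in the Otp and Sim1 values was not tested.

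In dnFGFR mice, OS and SS housing gave no identity gene past an adjusted p of 0.1 (0 of 9, with 0% of 16944 genes called by edgeR; 14 genes, none of them an identity gene, by DESeq2). Of the 9, 1 gene, Lhx8, had an unadjusted p below 0.05, against 6.72% of all genes. Lhx8 averaged 19.5 CPM under SS and 16.1 CPM under OS housing, and its log2 fold change was -0.27 (SE 0.122, 95% CI -0.54 to -0.01, adjusted p = 0.726, edgeR). The groups overlapped for Lhx8 and for the other 8 genes, where 1.42% of all genes did not overlap. Nkx2-1 gave -0.27 (-0.58 to 0.05) and Six3 -0.17 (-0.36 to 0.02). Isl1, at -0.11, Moxd1, at -0.02, Hmx2, at -0.21, Hmx3, at -0.05, Otp, at -0.01, and Sim1, at 0.28, had intervals that spanned 0. Of the 9 values, 8 were below 0, with a median of -0.11, where 49.1% of all genes were below 0. This number was 7 with DESeq2, 6 after removal of the trend on GC content and 5 with limma voom. The median was 0.02 without dnFGFR OS replicate 2, -0.26 without dnFGFR OS replicate 3 and -0.03 without dnFGFR OS replicate 5. Without the last of these mice Lhx8 was at -0.25. In that fit, 0 of 9 genes had an unadjusted p below 0.05, against 1001 of all genes tested (1138 with all mice). The striatal markers summed to between 3019 and 3689 CPM in dnFGFR SS and between 2085 and 2976 CPM in dnFGFR OS mice, without overlap, and 2 of 8 were lower at an unadjusted p of 0.05, with a median log2 fold change of -0.20. Their part in the Lhx8 value was not tested. When only mice killed on a date shared by SS and OS males were used (2 and 4 mice), the median was -0.32 and Lhx8 differed by -0.40 (adjusted p = 1.00, edgeR).

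The genotypes were then compared in SS mice. Again 0 of 9 identity genes passed an adjusted p of 0.1, against 0.2% of 16992 genes, and 0 of 9 had an unadjusted p below 0.05, against 8.63%. For each of the 9 genes the groups overlapped, where 1.57% of all genes did not. Isl1 was the nearest, at 16.1 ± 2.55 CPM in dnFGFR SS and 18.2 ± 1.53 CPM in control SS mice, and its log2 fold change (dnFGFR minus control) was -0.18 (-0.40 to 0.04, adjusted p = 0.668, edgeR). Nkx2-1 differed by -0.12 (-0.36 to 0.12), Six3 by -0.08 (-0.21 to 0.04), Lhx8 by -0.01 (-0.21 to 0.19) and Moxd1 by -0.02 (-0.23 to 0.20). For Otp, at 0.50 (-0.87 to 1.88), Sim1, at 0.41 (-1.26 to 2.08), and Hmx2, at -0.04 (-0.99 to 0.91), the intervals were wide and covered 0. Without control SS replicate 4, Otp was at 1.82 and Sim1 at 1.77, and neither passed an adjusted p of 0.1. Hmx3 differed by 0.15 (-0.24 to 0.54).

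In OS mice 0 of 10 identity genes passed an adjusted p of 0.1, against 0.0531% of 16941 genes, while 2 of 10 had an unadjusted p below 0.05, against 7.02% of all genes. Nkx2-1 was at 10.1 CPM in dnFGFR OS and at 13.9 CPM in control OS mice, which gave -0.47 on the log2 scale (SE 0.148, 95% CI -0.79 to -0.15, adjusted p = 0.600, edgeR). It was between -0.55 and -0.36 when single mice were left out, and -0.43 without dnFGFR OS replicate 5. Six3 was at -0.20 (SE 0.0904, -0.40 to -0.01, adjusted p = 0.699, edgeR) and at -0.15 without that mouse. In that fit, 1 of 10 genes had an unadjusted p below 0.05, against 1150 of all genes tested (1190 with all mice). Lhx8, at -0.20 (-0.46 to 0.06), Isl1, at -0.20 (-0.46 to 0.07), and Moxd1, at -0.03 (-0.27 to 0.21), had intervals that included 0, as had Hmx2 (-0.85), Otp (-0.30), Sim1 (-0.22), Hmx3 (0.15) and Six6 (0.38). Of the 10 values, 8 were below 0, with a median of -0.20, or -0.13 without dnFGFR OS replicate 5, where 49.97% of all genes were below 0. Without that mouse Hmx2 was at -0.60, Otp at -0.12, Sim1 at -0.0046, Hmx3 at 0.14 and Six6 at 0.61. The groups overlapped for each of the 10 genes, while 1.56% of all genes tested did not overlap.

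Markers of neighboring tissue also differed between the genotypes in OS mice, though no striatal or pallial marker passed an adjusted p of 0.1 by edgeR. The 8 striatal markers summed to between 3198 and 3697 CPM in control OS and between 2085 and 2976 CPM in dnFGFR OS mice. Of the 8, 5 were lower at an unadjusted p of 0.05, where 7.02% of all genes had such a p in either direction. The 6 pallial markers summed to between 238 and 605 CPM and between 306 and 810 CPM, with a median log2 fold change of 0.55. Of these, 1 was higher at an unadjusted p of 0.05. The same held in SS mice, where 5 of 8 striatal markers were lower and 3 of 6 pallial markers higher at that p. Their medians were -0.18 and 0.57, and 8.63% of all genes had such a p in SS mice. The part of the striatal and pallial markers in the Nkx2-1 and Six3 values was not tested.

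**Figure D3:**
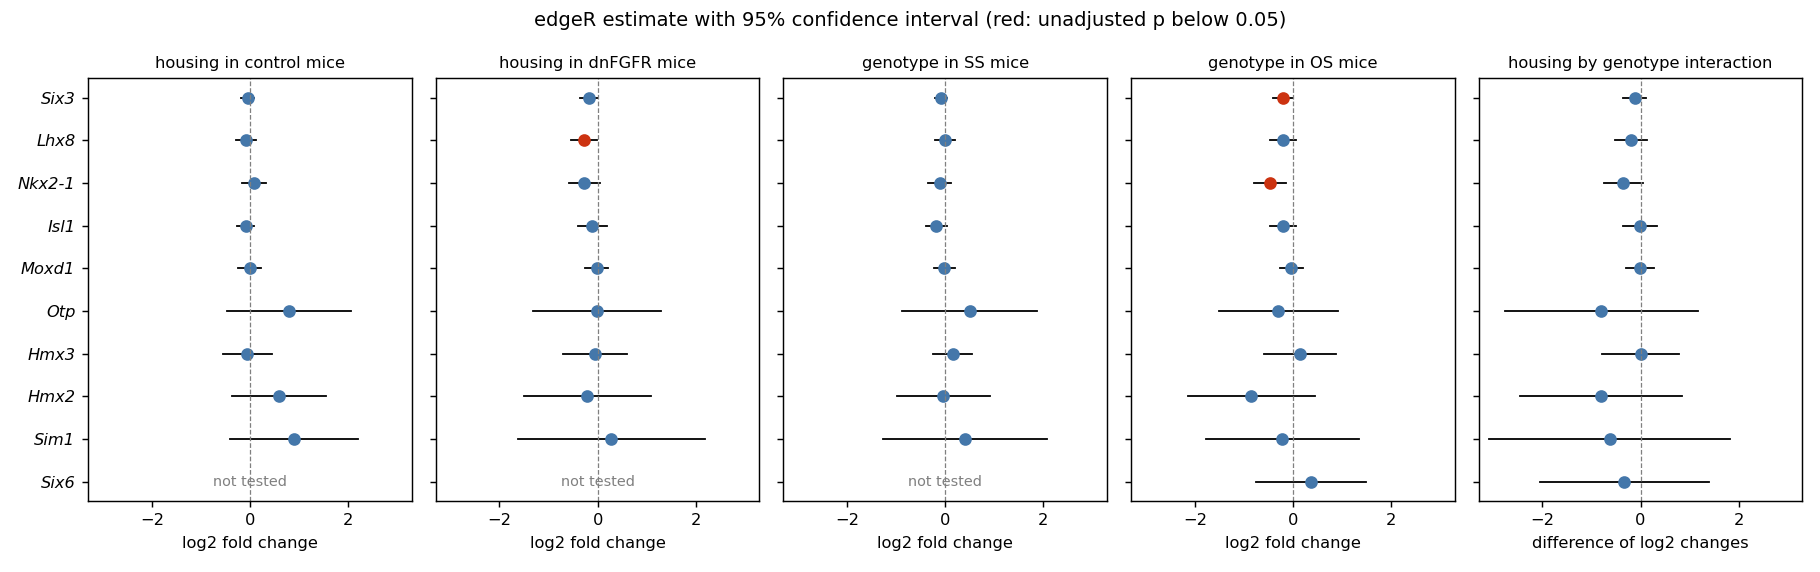
Log2 fold change of each identity gene with its 95% confidence interval from edgeR in the 4 comparisons (OS minus SS, or dnFGFR minus control) and the interaction, with genes in order of level and points in red where the unadjusted p was below 0.05. Lhx8 in dnFGFR mice (-0.27) and Six3 (-0.20) and Nkx2-1 (-0.47) in OS mice are the red points, and Otp, Hmx2, Sim1 and Six6 have the widest intervals.

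Whether the response to housing differed between genotypes was tested by the interaction over all 4 groups. No identity gene passed an adjusted p of 0.1 (0 of 10, with 0% of 17445 genes called), and 0 of 10 had an unadjusted p below 0.05, against 3.41% of all genes. Nkx2-1 had the smallest p, with a difference of log2 changes of -0.35 (-0.75 to 0.05, adjusted p = 0.963, edgeR). All 10 estimates were below 0, from -0.81 for Hmx2 to nearly 0 for Hmx3 and with a median of -0.26, where 49.9% of all genes were below 0. Such counts were 9 of 10 with DESeq2 and 7 of 10 with limma voom, and the median was -0.13 without dnFGFR OS replicate 5. The comparisons above share their control or dnFGFR mice, so their values for a gene are not independent of each other.

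Co-variation between mice was measured after the mean of each group had been subtracted from log2 CPM. Of the 45 pairs of identity genes, 1 passed an adjusted permutation p of 0.05. Otp and Sim1 correlated with r = 0.893 (permutation p = 2e-05, adjusted p = 0.0009) and rho = 0.833 (permutation p = 4e-05, adjusted p = 0.0018) over 20 mice. r was 0.827 without control SS replicate 4 and dnFGFR OS replicate 2, the mice farthest from the median of Otp, and stayed between 0.842 and 0.923 when mice were left out singly. Within groups and sacrifice dates, r was 0.908 over the 10 mice that shared both with another mouse. These mice can be ordered in 144 ways, so p could not go below 0.00694. A single relation at that p could not pass the adjustment there, and several would have to reach it together. Otp and Sim1 lie on different chromosomes (13 and 10).

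The other pairs were weaker. Nkx2-1 had r = 0.661 with Hmx2, 0.650 with Sim1 and 0.630 with Otp, each with an adjusted permutation p of 0.102, and Isl1 had r = -0.629 with Sim1 (adjusted permutation p = 0.151). The rho of these pairs was 0.651, 0.546, 0.636 and -0.617 (adjusted permutation p from 0.112 to 0.138). Without the mice farthest from the median, r fell to 0.543, 0.325, 0.420 and -0.506. The paralogs and partners did not pass either. r was 0.245 for the neighboring genes Hmx2 and Hmx3 (adjusted permutation p = 0.690), 0.311 for Six3 and Six6 (0.550), 0.474 for the LIM factors Lhx8 and Isl1 (0.288) and 0.375 for Lhx8 and Nkx2-1 (0.475). At 20 mice these values do not show that the genes vary independently.

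**Figure D4:**
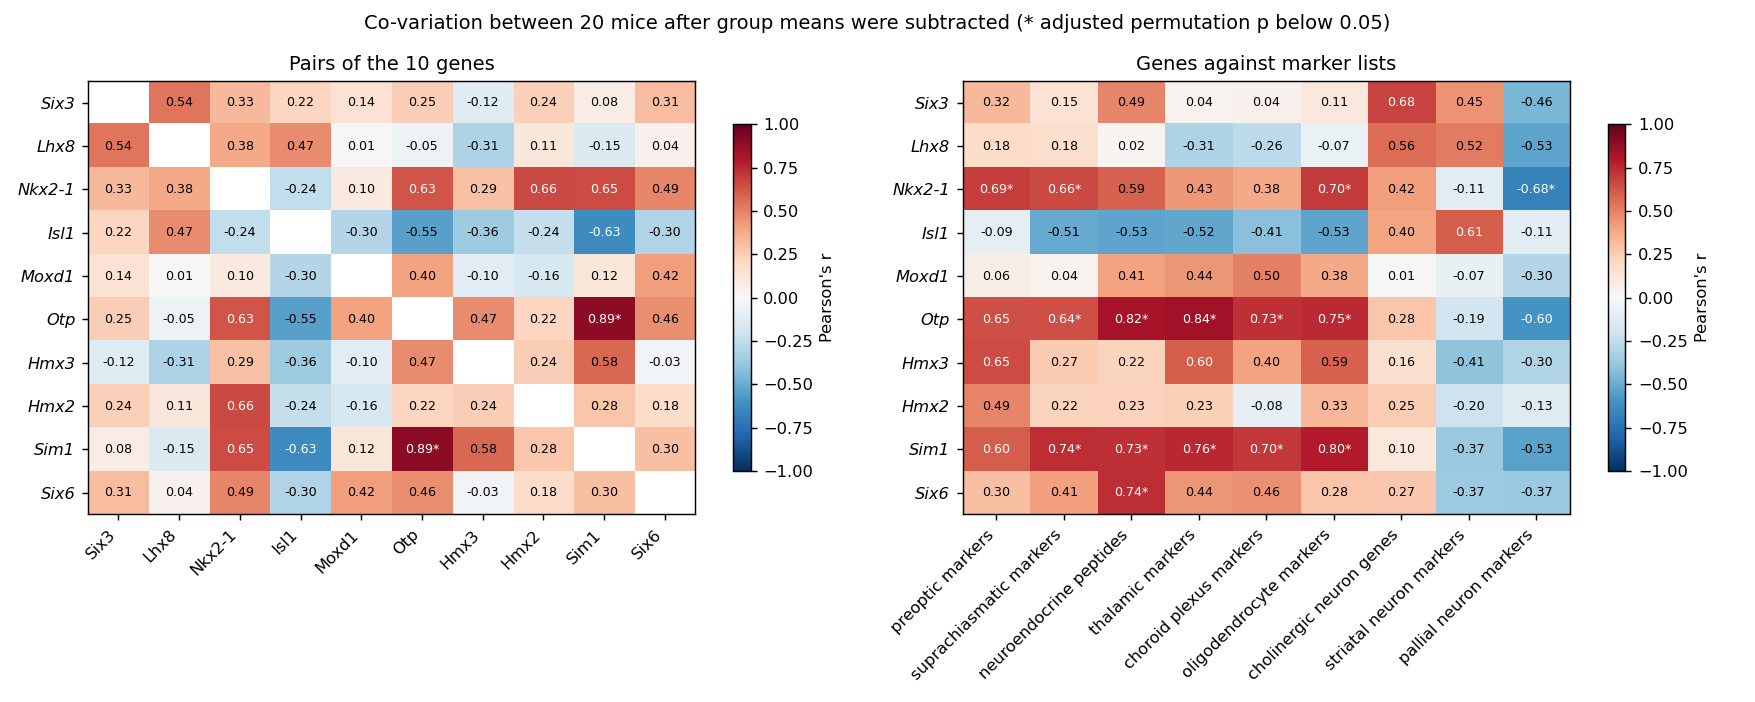
Pearson's r of group-centred log2 CPM over 20 mice, for pairs of the 10 identity genes at left and for each gene against the mean of 9 marker lists at right, on a color scale from -1 to 1, with asterisks where the adjusted permutation p was below 0.05. Otp and Sim1 (0.89) are the marked pair at left, and the rows of Otp, Sim1 and Nkx2-1 hold 14 of the 15 marked cells at right.

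Of 90 relations between identity genes and marker lists, 15 passed, 14 of them positive. Otp correlated with thalamic markers (r = 0.842), neuroendocrine peptides (0.824), oligodendrocyte (0.749), choroid plexus (0.729) and suprachiasmatic markers (0.644). Sim1 did so with the same lists, at 0.757, 0.728, 0.796, 0.704 and 0.736. Nkx2-1 correlated with oligodendrocyte (0.696), suprachiasmatic (0.662) and preoptic markers (0.691), and inversely with pallial markers (-0.676). Six6 correlated with neuroendocrine peptides (0.737). Adjusted permutation p ranged from 0.0087 to 0.0263 for r. For rho it ranged from 0.0018 to 0.0606 and was above 0.05 in 2 relations, Nkx2-1 with oligodendrocyte markers and Otp with suprachiasmatic markers. Without the mice farthest from the median, the smallest positive r among these were 0.438 for Nkx2-1 with oligodendrocyte and 0.517 with suprachiasmatic markers. Without dnFGFR SS replicate 4, 8 of the 90 relations passed. Within groups and sacrifice dates, r was 0.923 for Otp with thalamic, 0.875 with neuroendocrine, 0.971 with oligodendrocyte, 0.830 with choroid plexus and 0.480 with suprachiasmatic markers. Mice with more Otp and Sim1 thus also had higher mean levels of these marker lists, and the part of the marked tissues in the co-variation of Otp and Sim1 was not tested.

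The peptide list was opened gene by gene, a choice made after the data were seen. Otp correlated with Trh (r = 0.936), Oxt (0.929), Avp (0.896) and Gal (0.745), and Sim1 with Trh (0.876), Oxt (0.836), Avp (0.819) and Gal (0.713). These were 8 of 20 relations, with adjusted permutation p from 0.0001 to 0.00475 for r and from 0.0001 to 0.0100 for rho. For Otp, rho was 0.907, 0.947, 0.931 and 0.770, and for Sim1 0.866, 0.756, 0.856 and 0.666. Without the farthest mice, r was 0.885, 0.904, 0.886 and 0.688 for Otp and 0.841, 0.772, 0.830 and 0.496 for Sim1. Oxt, which encodes oxytocin, was at 37.6 CPM in control SS replicate 4, the mouse with the highest Otp, and at 1.15 CPM in dnFGFR OS replicate 2, the mouse with the lowest. Trh was at 16.5 and 3.33 CPM and Avp at 35.3 and 1.23 CPM in these mice. Crh, Sst, Pomc, Agrp, Ghrh and Gnrh1 did not pass with either gene, with r from -0.486 for Otp with Agrp to 0.381 for Otp with Ghrh. Without dnFGFR SS replicate 4, Otp with Agrp passed (r = -0.547, adjusted permutation p = 0.0261). Crh and Sst are made by some neurons of the same lineage, and their r with Otp was -0.0280 and -0.221. Sst was at a median of 139 CPM, and which cells of the block gave the Sst and Crh reads was not tested.

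**Figure D5:**
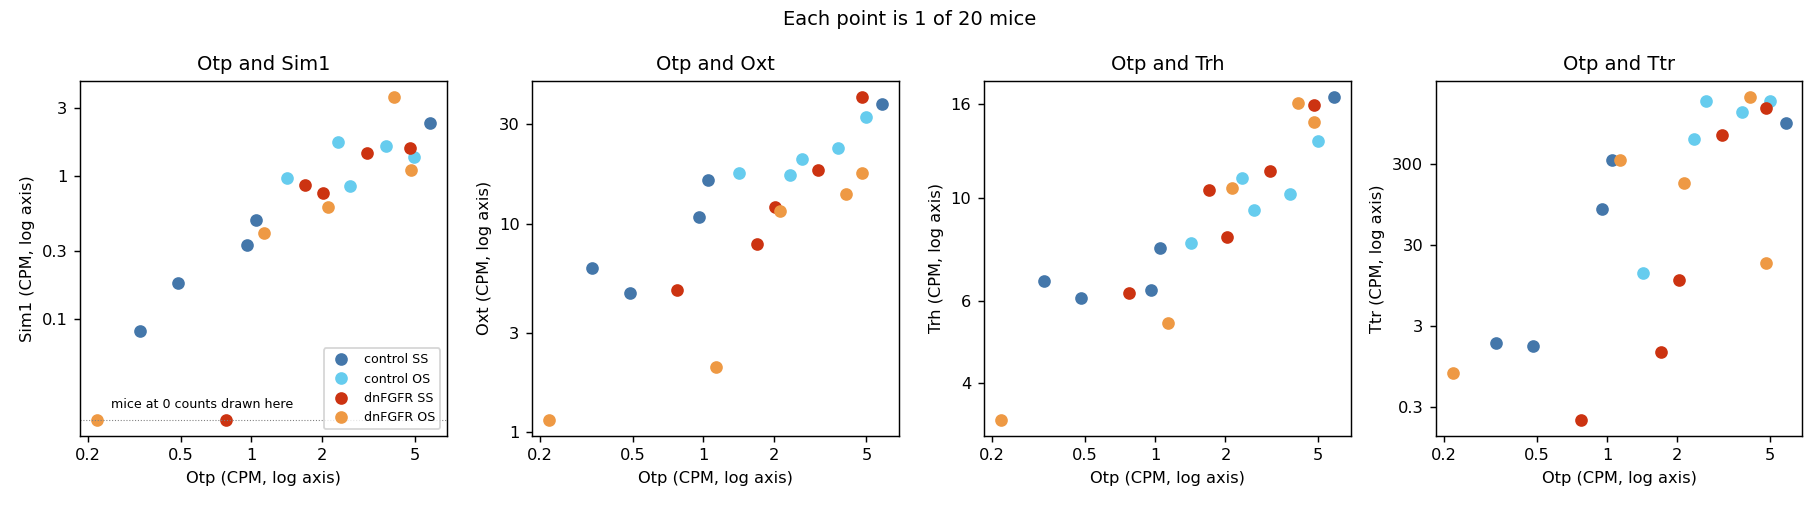
Levels of Sim1, Oxt, Trh and Ttr against Otp in 20 mice (TMM-scaled CPM on log axes, colored by group), with mice that had 0 Sim1 reads drawn on a dotted line. Sim1, Oxt and Trh rise with Otp in each panel, and mice of the 4 groups are mixed along the range from 0.218 to 5.83 CPM of Otp.

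The genes most like each identity gene between mice were then listed without a test, as the 3 highest r of group-centred log2 CPM among expressed genes over 20 mice. Those of Otp were Trh (0.936), Oxt (0.929) and Nr2f2 (0.919), which encodes a nuclear receptor. Six3 was most like the vesicular acetylcholine transporter Slc18a3 (0.901), Fam136a (0.825) and Ptpn5 (0.808), a striatum-enriched phosphatase. Isl1 was most like the retinoic acid receptor Rarb (0.881), a striatal marker here, Plppr1 (0.847) and Ntn1 (0.847). Sim1 was followed by Armc3 (0.928), Cdhr3 (0.912) and BC051019 (0.896), and Armc3 and Cdhr3 are known from ciliated cells. Nkx2-1 was most like Gdpd2 (0.865), Fpr2 (0.865) and Cyp2j9 (0.860), and Hmx3 most like Nfasc (0.868), Kcnj5 (0.861) and the prokineticin receptor Prokr2 (0.857). Six6 was followed by Rflna (0.917), Lhx8 by Upb1 (0.818), Moxd1 by Pla2g5 (0.812) and Hmx2 by Nmrk1 (0.766).

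Other transcription factors of the region were examined as lists beside the 10 genes. Of 18 further hypothalamic factors, of which 13 to 15 were tested, 0 passed an adjusted p of 0.1 in any of the 5 comparisons. The smallest p belonged to Nkx2-2, a relative of Nkx2-1, which was at -0.56 (SE 0.116, adjusted p = 0.110, edgeR) in dnFGFR against control SS mice and at -0.48 (SE 0.111, adjusted p = 0.205, edgeR) in OS against SS control mice. Nkx2-1 itself was at -0.12 and 0.08 in these comparisons. Elsewhere Nkx2-2 was above 0, at 0.12 for housing in dnFGFR mice and 0.04 for genotype in OS mice. In the interaction it was at 0.60 (SE 0.163, adjusted p = 0.963, edgeR). The median of the tested hypothalamic factors in the interaction was 0.07, where that of the identity genes was -0.26. Values below 0 were not particular to the identity genes. The median was -0.28 for the neuroendocrine peptides and -0.85 for the choroid plexus markers, against 0.16 for the thalamic and 0.02 for the suprachiasmatic markers. The other lists lay between -0.18 and -0.01. Among 11 relatives of the identity genes, Nkx2-4, Hmx1 and Isl2 were at a median of 0 counts, whereas Lhx6, a LIM-homeodomain relative of Lhx8, was at a median of 47.9 CPM. The 10 neuroendocrine peptides gave 0 genes past an adjusted p of 0.1. Oxt was lowest in p in OS mice, at -1.26 (SE 0.540, adjusted p = 0.666, edgeR) between dnFGFR and control, and Gnrh1, the gene whose promoter drives the transgene, was at -0.67 (SE 0.202, adjusted p = 0.308, edgeR) between the genotypes in SS mice.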

How the data were processed

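Paired-end RNA-seq was made from the POA of 20 males, and the reads were aligned by the sequencing provider with HISAT2 to GRCm38 and counted per RefSeq gene with Rsubread 2.0.1. The authors deposited the counts as whole numbers without normalization. Options for strand and for reads of several genes are not given in the sources used here. The table held 20 other columns that match no sample described, and these were not used. Counted reads came to between 32353578 and 39871353 per mouse. Litters are not named in the labels.

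The 10 genes and the gene lists were chosen with earlier results of these data known, so no list is independent support for a direction. All genes were tested with edgeR 4.0.16 in R 4.3.3 (quasi-likelihood, TMM, filterByExpr), each comparison on the mice of its own groups and the interaction on all 20, with Benjamini-Hochberg adjusted p below 0.1 over all genes as the threshold. Group-centred log2 CPM (prior count 2) was correlated over 20 mice by two-sided permutation of mice within groups (100000 resamples, smallest p 1e-05), with an adjusted p below 0.05 over the 45 pairs, the 90 relations with lists and the 20 relations with peptides. DESeq2 1.42.0, limma 3.58.1 (voom with quality weights), other normalizations and filters, removal of a trend on GC content (known for 96.6% of genes), blocks for replicate number and sacrifice date, and leaving out each mouse were alternatives. A few genes of these lists are not reported here, and the lists were used without them. Scripts were tested on simulated data. The rule for named genes was every identity gene, the 3 genes most like each, the pairs past the threshold, the 5 with the largest r and the related pairs, and from each list the gene with the smallest p. Sacrifice dates came from the study's supplement. Same-numbered mice did not deviate together (correlations from -0.235 to 0.258), so numbers were not taken as pairs.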

Additional observations from a re-analysis of the deposited data

Results flagged for a closer look

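In each gene and group of 5 mice (40 combinations), the gap between the extreme mouse and its nearest neighbor was compared with the range of the group, a rule by which chance marks about 1 in 20 groups. It marked 5. Otp in control SS mice was marked for replicate 4, at 5.83 CPM where the other 4 mice lay between 0.334 and 1.05 CPM. Sim1 was marked for the same mouse, at 2.35 CPM against 0.0834 to 0.496 CPM. Nkx2-1 in dnFGFR SS mice was marked for replicate 4, at 9.07 CPM against 12.6 to 13.1 CPM, the mouse that also had 0 Sim1 reads. Six6 in dnFGFR SS mice was marked for replicate 3, at 0.881 CPM against 0.109 to 0.231 CPM. Hmx3 in control SS mice was marked for replicate 2, at 0.964 CPM against 1.14 to 1.17 CPM. That mouse had 35 counts and the others 38, 42, 46 and 45, a gap within the counting CV of 15.7%. No identity gene passed the interaction test, so no difference between genotypes in the response to housing was marked.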

How the results depend on the processing

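The count of identity genes past an adjusted p of 0.1 stayed at 0 in each of the 5 comparisons under all 51 alternative fits and all 60 fits without 1 mouse. At an unadjusted p of 0.05, the count of identity genes ranged without single mice from 0 to 2 (housing in controls and genotype in SS mice), 0 to 3 (housing in dnFGFR mice), 1 to 2 (genotype in OS mice) and 0 to 1 (interaction), and over the alternatives from 0 to 2. With all mice, between 3.41% and 8.63% of all genes had such a p, and this background moved too. For genotype in OS mice it was 1190 genes with all mice, 788 without control OS replicate 2 and 2299 without dnFGFR OS replicate 2. The number of genes called over the whole table moved more. For housing in control mice it went from 21 to 6 at an adjusted p of 0.05, 32 with at least 10 counts in every mouse, 161 with DESeq2, 66 with limma voom, 0 with all 4 groups in 1 fit, 32 with the GC trend removed and 1 within sacrifice dates. For housing in dnFGFR mice DESeq2 called 14, for genotype in SS mice 235, and for genotype in OS mice 88, with 5 at an adjusted p of 0.05, 27 with limma voom and 45 with all 4 groups in 1 fit. Without single mice the counts ranged from 0 to 32 (housing in controls), 21 to 70 (genotype in SS mice) and 3 to 16 (genotype in OS mice). The median of the identity genes for housing in dnFGFR mice was -0.32 within sacrifice dates and from -0.26 to 0.0173 without single mice. The cause of these moves was not tested.

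Replicate numbers were used as a block only as an alternative, since they do not pair the mice. With the replicate block 23, 0, 41, 3 and 0 genes were called in the 5 comparisons, and with the GC trend removed as well 63, 0, 59, 8 and 0, of which no identity gene.

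Estimates changed sign in 25 of 416 alternative fits of single genes, none of them past the threshold. Not all were near 0 in the main fit, where Sim1 was at 0.28 for housing in dnFGFR mice and Six6 at -0.33 in the interaction. For housing in control mice Moxd1 became 0.00241 with limma voom and 0.0524 within sacrifice dates, and Hmx3 0.0230 with the GC trend removed. For housing in dnFGFR mice Otp became 0.00242 with RLE factors, 0.00209 without a filter, 0.00451 with DESeq2, 0.24 with limma voom and 0.16 with the GC trend removed, Hmx2 0.0472 and Moxd1 0.0026 with limma voom, Moxd1 0.0656 and Hmx3 0.00457 within sacrifice dates, Hmx3 0.38 with the GC trend removed and 0.24 with that and the replicate block, and Sim1 -0.14 with the replicate block, -0.24 with that and the GC trend, and -0.36 within dates. Lhx8 became 0.0140 with limma voom for genotype in SS mice. In the interaction Hmx3 became 0.00702 with RLE factors, 0.00568 with DESeq2, 0.15 with limma voom, 0.36 with the GC trend removed and 0.29 with that and the block, and Six6 0.24 and Moxd1 0.00556 with limma voom.

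Without single mice, estimates that crossed 0 ranged as follows. For housing in controls, Hmx3 lay between -0.17 and 0.0466, Moxd1 between -0.0484 and 0.0467, and Nkx2-1 between -0.0273 and 0.14. For housing in dnFGFR mice, Hmx2 lay between -0.60 and 0.10, Hmx3 between -0.27 and 0.15, Moxd1 between -0.0638 and 0.0173, Otp between -0.39 and 0.37, and Sim1 between -0.82 and 0.61. For genotype in SS mice, Hmx2 lay between -0.35 and 0.18, Lhx8 between -0.0654 and 0.0457, and Moxd1 between -0.0584 and 0.0233. For genotype in OS mice, Hmx3 lay between -0.0722 and 0.35, Moxd1 between -0.0892 and 0.0100, Otp between -0.69 and 0.000141, and Sim1 between -1.31 and 0.11. In the interaction, Hmx3 lay between -0.21 and 0.21, Isl1 between -0.0776 and 0.0734, Moxd1 between -0.0579 and 0.0387, and Six6 between -0.55 and 0.46.

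Without subtraction of group means 3 pairs and 27 relations with lists passed, and r of Otp was 0.0634 with Crh and -0.530 with Agrp (adjusted permutation p = 0.0366). Within groups and sacrifice dates 0 pairs, 0 lists and 0 peptides passed. There p could not go below 0.00694, so only several relations together could have passed. Otp with Avp and Otp with Oxt were each at an adjusted permutation p of 0.0673. Without single mice 1 to 2 pairs passed (2 without control SS replicate 4) and 8 to 20 relations with lists, and r ranged from -0.103 to 0.386 for Hmx2 with Hmx3, for Otp from -0.148 to 0.333 with Crh, -0.302 to 0.0983 with Pomc and -0.423 to 0.274 with Sst, and for Sim1 from -0.234 to 0.198 with Crh, -0.336 to 0.0250 with Pomc and -0.500 to 0.0973 with Sst. Depth limits Six6 and Hmx2, with medians of 9 and 17 counts per mouse.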

Other observations

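Of 11 transcription factors of the subpallium (the Dlx genes, Lhx6, Gbx1, Sp8, Sp9, Meis2, Ebf1 and Zic1), 0 passed an adjusted p of 0.1 by edgeR in any comparison. At an unadjusted p of 0.05, 2 (Gbx1 and Sp9) were lower with OS housing in dnFGFR mice, against 6.72% of all genes called in either direction. Sp8, Sp9 and Zic1 were lower in dnFGFR than in control SS mice (3 of 11, against 8.63%), and Dlx1, Gbx1 and Sp9 in dnFGFR than in control OS mice (3 of 11, against 7.02%). Dlx1, at 0.11, was higher with OS housing in controls (1 of 11, against 7.2%). Sp8, a zinc-finger factor of interneurons, was at -0.37 (SE 0.0889, adjusted p = 0.188, edgeR) between the genotypes in SS mice, and its relative Sp9 at -0.45 (SE 0.149, adjusted p = 0.643, edgeR) in OS mice. The 6 cholinergic genes included 4 that were lower in dnFGFR SS than in control SS mice at an unadjusted p of 0.05, where 8.63% of all genes had such a p in either direction, with a median log2 fold change of -0.25, and Ngfr, the low-affinity neurotrophin receptor, had the smallest p there (-0.40, SE 0.0986, adjusted p = 0.209, edgeR).

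Among relatives of the identity genes, Six5 was at -0.75 (SE 0.203, adjusted p = 0.496, edgeR) between the genotypes in OS mice and Six4 at 0.83 (SE 0.240, adjusted p = 0.352, edgeR) between OS and SS control mice, and neither passed. Of 11 relatives, 4 at most were abundant enough to be tested.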
